A study of Mus musculus with 21 samples.

Results

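Binding of estrogen receptor alpha (ERα) in visceral white adipose tissue, labelled vWAT, was compared between mice given estradiol and mice given vehicle. The peaks described are the 5000 with the smallest p-value in the estradiol list, of 20715 peaks, and the 5000 with the smallest p-value in the vehicle list, of 7400. These 10000 peaks belong to the 72690 ERα peaks that the series lists on chromosomes 1 to 19 and X over 5 lists. A peak was called shared when it overlapped any peak of the other full list by at least 1 bp, and estradiol-only or vehicle-only otherwise. The best rank, 1, belongs to the smallest p-value.

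In the series, ERα was mapped in fat depots and liver by ChIP-seq, the sequencing of DNA recovered with an antibody to the receptor; RNA-seq and H3K27ac ChIP-seq libraries of vWAT were not used here. The vWAT groups comprised 4 libraries of CD-1 mice treated with estradiol and 2 of CD-1 mice given vehicle, and all animals were 10 weeks old. Each group has 1 deposited peak list, so no value per library was at hand and no test between the treatments was possible. Percentages carry 95% Wilson intervals for the number of peaks counted, which say nothing of the spread between mice. The treatment, the number of libraries (4 against 2) and the read depth, which is unknown here, cannot be told apart. In whole tissue, fewer cells with the receptor and less bound receptor per cell cannot be told apart either. The sources used here do not give sex, dose, route or time of treatment. The peak lists hold no expression values, so the labelled tissue was not checked by marker expression.

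ERα is a nuclear receptor that is activated by estradiol, binds DNA as a dimer at estrogen response elements and recruits coactivators to nearby and distant genes. An estrogen response element is a palindrome of AGGTCA-type hexamers with a short spacer, and most of the sites known from breast cancer cells lie in enhancers rather than promoters. The receptor can also be found on DNA without its own element, through contact with other transcription factors. In white fat, mice that lack ERα store more fat, and the receptor is known for effects on adipocyte size and fat cell metabolism.

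The peaks that fell into annotated promoters allow the sequence under them to be read. Shown first are promoters under estradiol-only summits that hold the hexamer AGGTCA, or TGACCT on the other strand, in the bases before the start. Dhcr7 encodes the last enzyme of cholesterol synthesis (GRCm38.p6, chr7:143823149-143823398, plus strand). Adig encodes adipogenin, a small protein of fat cells (chr2:158502362-158502611, plus strand). Omd encodes osteomodulin, a matrix proteoglycan (chr13:49582212-49582461, plus strand), and C3 encodes the central complement component (chr17:57228137-57228386, minus strand). Idnk encodes a gluconate kinase (chr13:58157399-58157648, plus strand). For contrast, Mad2l1, a spindle checkpoint gene, had a shared peak that ranked far better with estradiol (chr6:66534971-66535220, plus strand). Abi1, an actin regulator, and Ankrd39, an ankyrin repeat gene, had shared peaks with large losses of rank (Abi1 at chr2:23040242-23040491, minus strand, Ankrd39 at chr1:36547253-36547502, minus strand), and Slc25a28, a mitochondrial iron carrier, lay at a vehicle-only peak (chr19:43674882-43675131, minus strand). Each line gives the 250 bases before the annotated start from RefSeq, 5′ to 3′ on the strand of the gene, and capitals mark each AGGTCA or TGACCT.
Dhcr7: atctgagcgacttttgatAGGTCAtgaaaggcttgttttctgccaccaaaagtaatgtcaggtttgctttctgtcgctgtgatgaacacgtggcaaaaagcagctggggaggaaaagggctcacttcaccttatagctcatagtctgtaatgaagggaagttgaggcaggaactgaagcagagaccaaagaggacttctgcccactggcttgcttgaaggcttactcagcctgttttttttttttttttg
Adig: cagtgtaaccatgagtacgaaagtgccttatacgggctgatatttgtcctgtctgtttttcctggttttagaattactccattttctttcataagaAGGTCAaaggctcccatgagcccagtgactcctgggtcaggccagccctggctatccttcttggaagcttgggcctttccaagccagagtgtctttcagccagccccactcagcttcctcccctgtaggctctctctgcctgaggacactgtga
Omd: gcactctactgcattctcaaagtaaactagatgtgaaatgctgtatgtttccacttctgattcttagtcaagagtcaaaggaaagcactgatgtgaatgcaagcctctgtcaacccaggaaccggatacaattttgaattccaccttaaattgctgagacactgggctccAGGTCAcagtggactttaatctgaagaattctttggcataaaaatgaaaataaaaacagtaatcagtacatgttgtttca
C3: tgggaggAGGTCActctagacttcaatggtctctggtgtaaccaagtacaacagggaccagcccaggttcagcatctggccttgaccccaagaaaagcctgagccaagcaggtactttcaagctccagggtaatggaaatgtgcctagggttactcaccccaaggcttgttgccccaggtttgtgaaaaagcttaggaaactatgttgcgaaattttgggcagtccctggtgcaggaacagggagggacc
Idnk: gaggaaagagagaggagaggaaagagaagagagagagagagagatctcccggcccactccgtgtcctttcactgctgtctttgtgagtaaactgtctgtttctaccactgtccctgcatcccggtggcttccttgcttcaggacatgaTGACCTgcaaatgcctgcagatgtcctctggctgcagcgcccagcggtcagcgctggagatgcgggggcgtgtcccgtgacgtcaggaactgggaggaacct
Mad2l1: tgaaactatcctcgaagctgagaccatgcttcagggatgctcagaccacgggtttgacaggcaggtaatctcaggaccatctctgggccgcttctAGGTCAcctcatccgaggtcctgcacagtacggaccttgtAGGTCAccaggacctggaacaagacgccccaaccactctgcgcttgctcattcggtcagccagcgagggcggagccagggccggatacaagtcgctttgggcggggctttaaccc
Abi1: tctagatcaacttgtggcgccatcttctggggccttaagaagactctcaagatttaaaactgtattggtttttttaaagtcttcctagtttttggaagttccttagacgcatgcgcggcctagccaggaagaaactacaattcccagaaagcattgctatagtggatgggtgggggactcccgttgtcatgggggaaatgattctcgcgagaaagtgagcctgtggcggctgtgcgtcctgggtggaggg
Ankrd39: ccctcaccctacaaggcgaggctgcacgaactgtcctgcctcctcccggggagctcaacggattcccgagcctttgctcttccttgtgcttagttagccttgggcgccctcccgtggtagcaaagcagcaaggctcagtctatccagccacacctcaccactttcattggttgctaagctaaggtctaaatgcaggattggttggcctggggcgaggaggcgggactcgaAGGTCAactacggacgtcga
Slc25a28: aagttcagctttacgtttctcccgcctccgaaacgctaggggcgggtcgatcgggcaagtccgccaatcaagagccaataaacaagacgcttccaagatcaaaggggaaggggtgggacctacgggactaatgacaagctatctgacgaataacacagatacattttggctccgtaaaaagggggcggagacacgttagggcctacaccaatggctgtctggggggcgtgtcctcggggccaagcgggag

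Counting the annotated start as 0, the hexamers begin at position -232 in Dhcr7, -154 in Adig, -80 in Omd, -243 in C3 and -102 in Idnk. In Mad2l1 they begin at -155 and -115, and in Ankrd39 at -20. The peak over the Mad2l1 promoter had rank 106 with estradiol and 2320 with vehicle. The peaks over Dhcr7, Adig, Idnk, Omd and C3 had estradiol ranks of 1678, 1680, 1695, 1952 and 2680 and no vehicle counterpart. The printed stretches of Abi1 and Slc25a28 hold no such hexamer. The Abi1 peak had rank 4901 with estradiol and 651 with vehicle, the Ankrd39 peak 4128 with estradiol and 664 with vehicle, and the Slc25a28 peak had vehicle rank 1431 and no estradiol counterpart.

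Estradiol-only peaks in promoters lay over the AGGTCA hexamer more often than shared or vehicle-only peaks did. Promoter windows ran 250 bases before to 50 bases after each annotated start, and the hexamer was searched on both strands. It was present in 11 of 20 windows with an estradiol-only summit (55%, interval 34.2 to 74.2), in 113 of 1071 windows with a shared summit of the estradiol list (10.6%, 8.85 to 12.5) and in 17 of 186 windows with a vehicle-only summit (9.14%, 5.78 to 14.1). Among all 21045 promoter windows the share was 14.6%. The estradiol-only count rests on 20 windows, since only 20 of 2632 such peaks had their summit in a window. The windows of Plscr4, Cdrt4, Ankrd26, Ckap2l, Psma3 and Fh1 complete the 11. Median GC content was 53.2% for estradiol-only windows, 57.7% for shared windows, 61.0% for vehicle-only windows and 56.7% for all windows, and its part in the motif shares was not tested.

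The full palindrome, GGTCA and TGACC with any 3 bases between them, was in 0 of the 20 estradiol-only windows, 0 of the 1071 shared windows and 0 of the 186 vehicle-only windows, and in 11 of all 21045. With 1 mismatch among its fixed letters, a setting added after the data were seen, it was in 2 of 20 estradiol-only windows (Nlrp3 and Idnk), in 11 of 1071 shared windows (1.03%), in 1 of 186 vehicle-only windows (0.538%) and in 0.836% of all windows. The palindrome and the hexamer share the letters GGTCA and can overlap. Other motifs differed in their direction. The ETS letters CCGGAA were in 20% of estradiol-only windows (8.07 to 41.6), 44.9% of shared windows (42.0 to 47.9), 34.9% of vehicle-only windows (28.5 to 42.0) and 18.9% of all windows. The CCAAT letters were in 40.0% of estradiol-only windows, 54.8% of shared, 51.6% of vehicle-only and 38.5% of all windows. The GC box GGGCGG was in 35.0% of estradiol-only windows, 54.9% of shared, 67.2% of vehicle-only and 46.7% of all windows. The cAMP response element, TGAC joined to GTCA, was in 3 of 20 estradiol-only windows (15%, 5.24 to 36.0), 2.71% of shared, 3.23% of vehicle-only and 2.26% of all windows. The E-box CACGTG was in 15% of estradiol-only windows (5.24 to 36.0), 8.22% of shared, 12.9% of vehicle-only and 7.91% of all windows. The NRF1 motif was in 10.0%, 8.50%, 10.8% and 6.44% of windows in the same order, and the AP-1 letters TGANTCA in 0%, 4.11%, 3.23% and 7.04%. All motifs were searched on both strands. These are matches of letters and do not show a bound site.

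Among the 5000 estradiol peaks, 2632 were estradiol-only (52.6%, interval 51.3 to 54.0) and 2368 were shared (47.4%, 46.0 to 48.7). Among the 5000 vehicle peaks, 1219 were vehicle-only (24.4%, 23.2 to 25.6) and 3781 were shared (75.6%, 74.4 to 76.8). The counterpart was looked up in full lists of 7400 vehicle and 20715 estradiol peaks, so the shares of both sides also follow the length of the list that was searched. Of the 2368 shared estradiol peaks, 2201 met a vehicle peak within its own first 5000 and 167 met only a lower one. Of the 3781 shared vehicle peaks, 2209 met an estradiol peak within its first 5000 and 1572 only a lower one. With overlap looked up in the first 5000 of the other list alone, 56.0% of estradiol peaks were estradiol-only and 55.8% of vehicle peaks were vehicle-only. With 3000 peaks per list and the full other list, the shares were 44.4% estradiol-only and 7.47% vehicle-only.

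The lists end at different strengths, which is a property of the lists as deposited. The peak at rank 5000 had a −log10 p of 13.6 and an enrichment of 7.15 with estradiol, and a −log10 p of 5.47 and an enrichment of 4.30 with vehicle. The next peak, at rank 5001, had the same values in each list. The first peak of each list had a −log10 p of 385 with estradiol and 391 with vehicle. Enrichment is the authors' own value for a peak over an unstated background. Apart from the values at ranks 5000 and 5001, which describe where each list was cut, it is compared here only within a list. Its median was 8.71 for estradiol-only and 10.3 for shared peaks of the estradiol list, and 4.76 for vehicle-only and 6.77 for shared peaks of the vehicle list. Median peak width was 585 bp for estradiol-only and 657 bp for shared peaks of the estradiol list, against 330 bp for vehicle-only and 518 bp for shared peaks of the vehicle list.

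Estradiol-only peaks began near the top of their list, whereas vehicle-only peaks began far down theirs. The first estradiol-only peak had rank 22 and the first vehicle-only peak had rank 1381. In steps of 500 ranks, the shared percentage of estradiol peaks was 77, 66.2, 55, 47.6, 46.4, 41.6, 37.8, 37.8, 34.8 and 29.4. For vehicle peaks it was 100, 100, 99.6, 96.6, 87.8, 71.2, 57.0, 52.8, 51.6 and 39.6. The estradiol share was lower at each step, and both were lowest in the last. Estradiol peaks were looked up in 7400 vehicle peaks and vehicle peaks in 20715 estradiol peaks, so these steps also follow the length of the list searched.

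**Figure D1:**
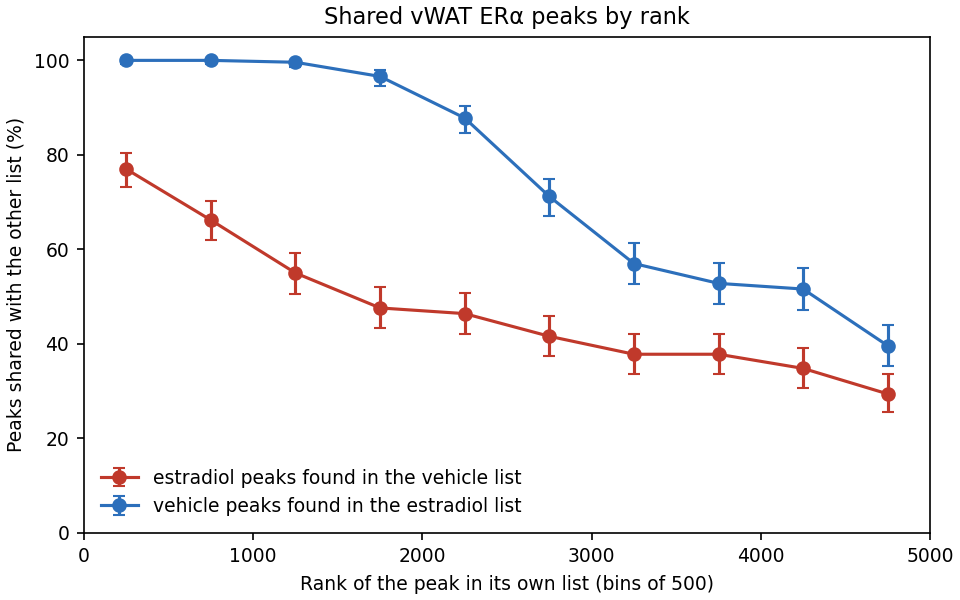
Percent of peaks that overlap a peak of the other full list (y axis) by rank in the peak's own list (x axis, steps of 500 ranks), for estradiol (red) and vehicle (blue). Points are shares of 500 peaks and bars are 95% Wilson intervals. The list searched held 7400 vehicle peaks for the red points and 20715 estradiol peaks for the blue points. The estradiol share is 77% in the first step and 29.4% in the last, and the vehicle share is 100% and 39.6% in the same steps.

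The best-ranked estradiol-only peaks lay inside genes or in intergenic stretches, and none of the first 10 was within 1 kb of a gene end. The first (rank 22, −log10 p of 214) lay inside Plppr3, which encodes a phospholipid phosphatase-related protein, 1.46 kb from its end and 24.96 kb from Cfd, the adipsin gene. Those at ranks 46 and 66 lay inside Zmiz1, a transcriptional coregulator, and Ksr1, a scaffold of the MAP kinase cascade. Those at ranks 39, 61 and 65 lay 9.80 kb from Zcchc10, 16.6 kb from Batf, an AP-1 family factor, and 7.63 kb from Cryge, a lens crystallin gene, and the one at rank 44 lay 37.8 kb from Gm46240. The others, at ranks 34, 43 and 56, had no protein-coding gene within 50 kb. Of these, the peaks at chr11:79842915-79843641 and chr11:79778442-79779458 (mm10) were neighbours, 90.8 kb from Utp6 and 80.8 kb from Rab11fip4. All 10 were in the list of subcutaneous white fat (scWAT) with estradiol, 5 in that of brown fat (BAT) and 2 in that of Liver.

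The 10 best-ranked shared peaks held a mixture of positions and of vehicle ranks. Peaks at the ends of Cwc22, a splicing factor gene, Fyco1, an autophagosome transport gene, and Slc4a1ap had ranks 3, 7 and 9 with estradiol and 6, 3 and 10 with vehicle. The peak inside Chl1, a neural adhesion gene, had rank 8 with estradiol and 2 with vehicle, and the one 29.5 kb from Rpusd4 was first in both lists. Other peaks of this set stood much lower in the vehicle list. The peak inside Gm12248 had rank 5 with estradiol and 1763 with vehicle, that inside Aff3, a transcriptional elongation gene, 6 with estradiol and 1300 with vehicle, and that inside Spon1, a matrix protein gene, 10 with estradiol and 1394 with vehicle. The peak 34.9 kb from Cradd, an apoptosis adaptor gene, had rank 4 with estradiol and 539 with vehicle. The last one, with no gene within 50 kb, had rank 2 with estradiol and 154 with vehicle.

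Of the 10 best-ranked vehicle-only peaks, 8 lay within 1 kb of a gene end, 7 were in the Liver list and 4 in the scWAT list, both from estradiol-treated mice. They lay at Setd5, a chromatin regulator (rank 1381, −log10 p of 16.0), Slc25a28 (rank 1431), Arhgap5 (rank 1733), Mpzl1 (rank 1753), Mybbp1a, a nucleolar protein (rank 1819), Sypl2 (rank 1822), Tmem45a (rank 1834) and Pik3r2, a regulatory subunit of PI3 kinase (rank 1844). The others lay inside Slc24a3, a cation exchanger (rank 1660), and away from any gene (rank 1589).

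Estradiol-only peaks were rare at the ends of protein-coding genes and shared peaks were mostly there. Summits no more than 1 kb from a gene end made up 5.21% of estradiol-only peaks (137 of 2632, interval 4.42 to 6.12), 65.8% of shared peaks of the estradiol list (1557 of 2368, 63.8 to 67.6), 68.2% of shared peaks of the vehicle list (66.7 to 69.6) and 36.3% of vehicle-only peaks (442 of 1219, 33.6 to 39.0). Counted from annotated transcription starts alone, for the 79.9% of genes with a start in the promoter table, the shares were 3.27%, 60.2%, 62.6% and 32.5% in the same order. Inside gene spans, away from the ends, lay 46.1% of estradiol-only summits, against 16.6% of shared summits of the estradiol list and 32.3% of vehicle-only summits. Beyond 100 kb from any gene lay 15.1% of estradiol-only, 4.56% of shared and 9.02% of vehicle-only summits. The estradiol-only share at gene ends was between 2.61% and 6.75% in every step of 500 ranks, so it was low at the top of the list as well as at its foot. It was 10.3% when shared peaks had to have summits within 100 bp, and 16.3% when ends were widened to 5 kb, where shared peaks of the estradiol list had 73.5%. The vehicle-only share was 48.6% in ranks 2501 to 3000 and 24.8% in ranks 4501 to 5000.

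**Figure D2:**
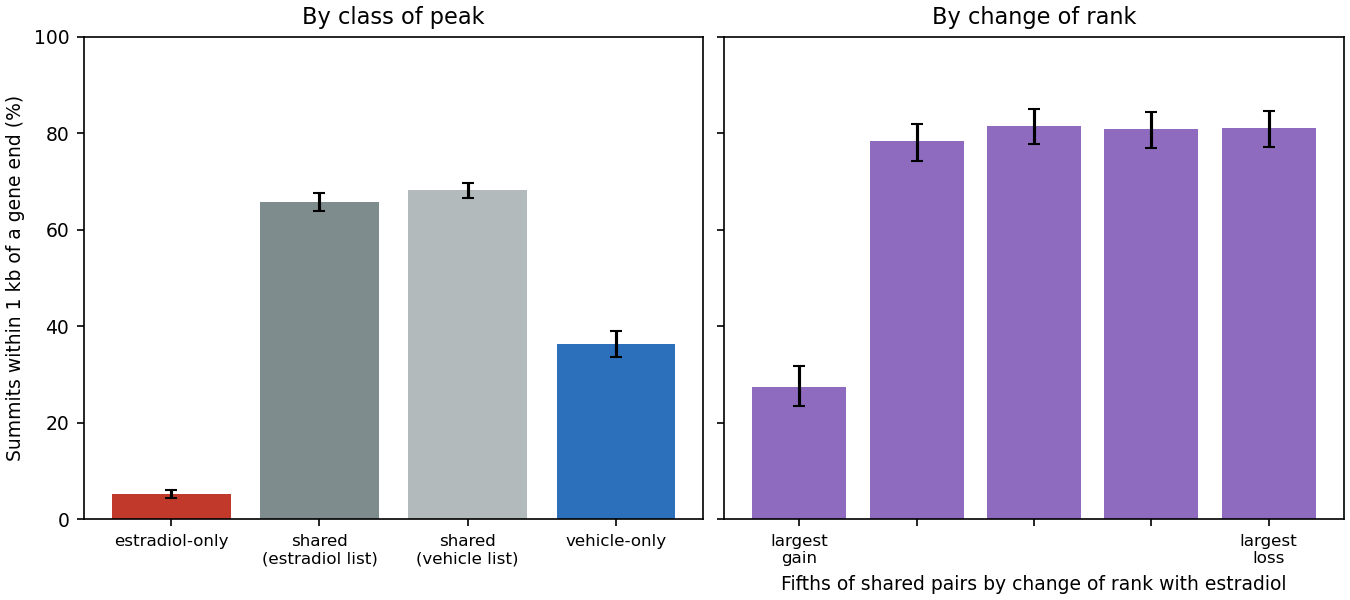
Percent of peaks (y axis) whose summit lies within 1 kb of an end of a protein-coding gene, for the classes of peaks on the x axis. Bars start at 0 and whiskers are 95% Wilson intervals over peaks. Estradiol-only peaks stand at 5.21%, shared peaks at 65.8% (estradiol list) and 68.2% (vehicle list) and vehicle-only peaks at 36.3%.

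The strength of the counterpart divided the shared peaks further. The 167 shared estradiol peaks whose vehicle counterpart lay below rank 5000 had 10.8% at gene ends (6.93 to 16.4), above the 5.21% of estradiol-only peaks and below the share of all shared peaks. The 1572 shared vehicle peaks whose estradiol counterpart lay below rank 5000 had 65.8% at gene ends (63.5 to 68.1), and the 2209 with a counterpart above it had 69.9% (67.9 to 71.7).

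The estradiol lists of other tissues also separated the classes. In scWAT, 84.5% of estradiol-only peaks were present (interval 83.1 to 85.8), against 96.0% of shared peaks of the estradiol list (95.2 to 96.7) and 25.8% of vehicle-only peaks (23.4 to 28.3). In Liver, 8.47% of estradiol-only peaks were present (7.47 to 9.60), 77.9% of shared peaks (76.2 to 79.5) and 23.1% of vehicle-only peaks (20.9 to 25.6). In BAT the shares were 8.85%, 57.5% and 3.53%. In none of these lists were 14.3% of estradiol-only, 1.86% of shared and 61.4% of vehicle-only peaks. The scWAT, BAT and Liver lists rest on 3, 1 and 2 libraries and hold 17971, 5193 and 21411 peaks, so shares are compared between classes within a tissue and not between tissues. Values depended on how overlap was set: with summits within 100 bp the Liver share was 14.8% for estradiol-only and 42.0% for vehicle-only peaks, and the scWAT share of vehicle-only peaks was 49.2%.

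**Figure D3:**
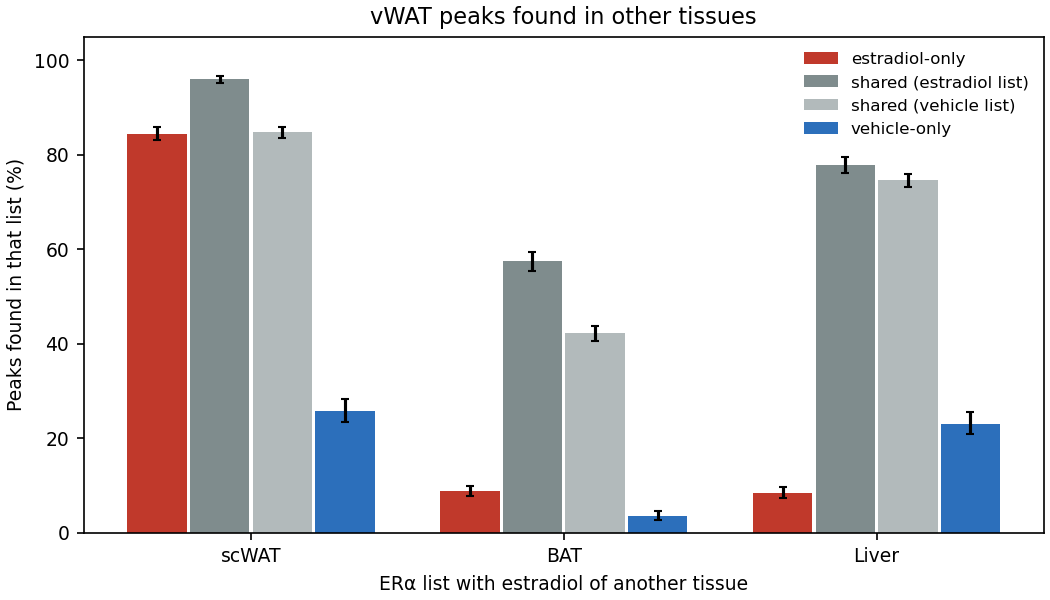
Percent of peaks (y axis) of each vWAT class that overlap a peak of the scWAT, BAT or Liver list from estradiol-treated mice (x axis). Bars start at 0 and whiskers are 95% Wilson intervals over peaks. Estradiol-only peaks are at 84.5% in scWAT, 8.85% in BAT and 8.47% in Liver, and vehicle-only peaks at 25.8%, 3.53% and 23.1%.

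Away from gene ends, the contrast with shared peaks remained in Liver, while the intervals of estradiol-only and vehicle-only peaks overlapped. Of peaks over 1 kb from any end, 7.29% of estradiol-only peaks (6.34 to 8.38) were in Liver, 45.6% of shared peaks of the estradiol list (42.2 to 49.1) and 9.65% of vehicle-only peaks (7.77 to 11.9). At gene ends the Liver shares were 29.9% of estradiol-only peaks, 94.7% of shared and 46.8% of vehicle-only peaks. In scWAT, peaks away from gene ends were present at 84.2% for estradiol-only, 94.5% for shared and 15.8% for vehicle-only. By rank, the scWAT share of estradiol-only peaks was 99.1% in the first 500 ranks and 62.9% in the last 500, while the Liver share was 7.83% and 9.63% in the same steps.

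Shared peaks kept their order between the lists at gene ends and did so much less elsewhere. Matching each shared estradiol peak to 1 vehicle peak within both sets of 5000 gave 2200 pairs. Spearman's rank correlation between estradiol rank and vehicle rank was 0.54 over all pairs, 0.82 over the 1538 pairs at gene ends and 0.20 over the 662 pairs away from them. These correlations run over peaks of the same 2 lists, and peaks are not independent replicates. The summits of a pair lay a median of 38 bp apart, and 86.4% lay within 100 bp.

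The change of rank is the vehicle rank minus the estradiol rank, so a positive value means a better place with estradiol. Its median was -714.5 places (quartiles -1631.5 and -148), with 382 pairs placed better with estradiol, 1817 placed worse and 1 equal. The estradiol-only peaks that stand between shared ones in the estradiol list push shared peaks down, so the pairs were also ranked among themselves. The median was then -124.5 places over all pairs, -182 at gene ends and 134.5 away from them. By this ranking 701 of 2200 pairs gained rank with estradiol (31.9% of pairs). The gaining pairs were 321 of the 1538 at gene ends (20.9%) and 380 of the 662 away from them (57.4%). The balance of gains and losses depended on the ranking and the size asked for. In list ranks, 276 pairs gained and 909 lost more than 1000 places. Among pairs, 324 gained and 301 lost more than 500 places, and 234 gained and 25 lost more than 1000. Of those 234 gains 22 lay at gene ends (9.40%), and of those 25 losses 24 did (96.0%).

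**Figure D4:**
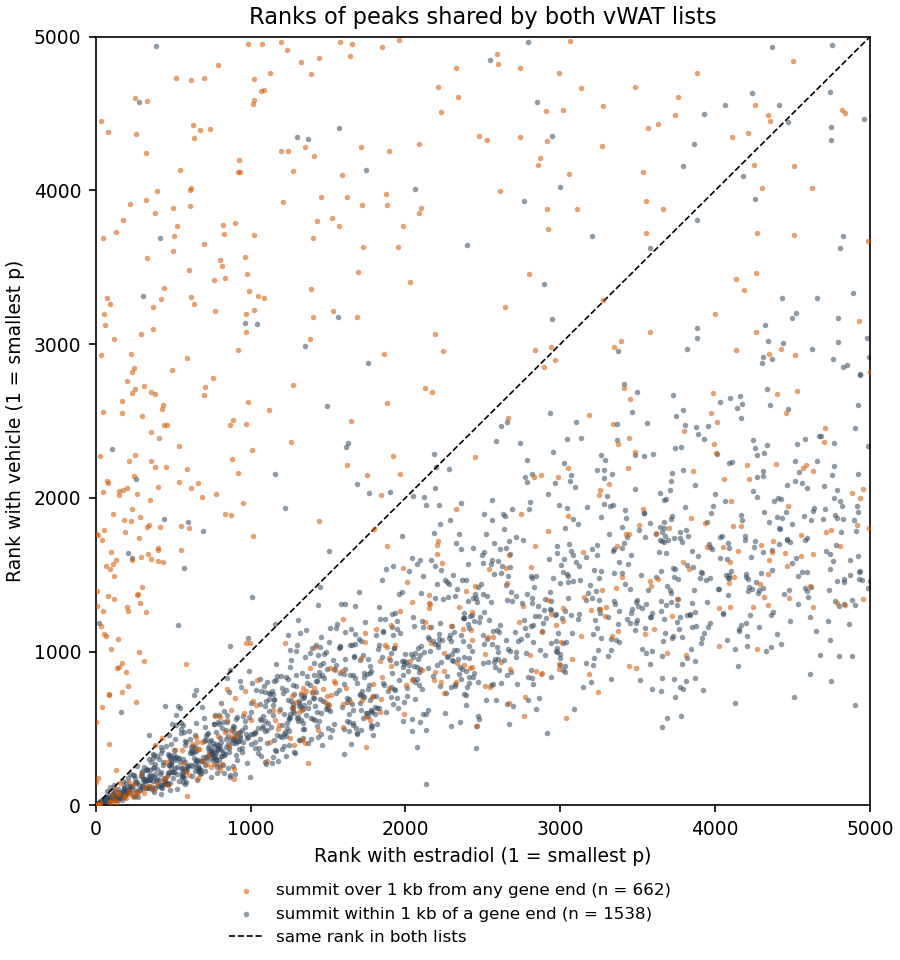
Rank in the estradiol list (x axis) and in the vehicle list (y axis) of 2200 shared peaks, 1 being the smallest p-value. Orange points are summits over 1 kb from any gene end (662), dark points are summits at gene ends (1538), and the dashed line marks equal rank. Most dark points form a narrow band under the line (rank correlation of 0.82), while 307 of the 382 points above the line are orange.

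The points above the line of equal rank differed in position and tissue from those below it. Of the 382 pairs placed better with estradiol in the lists, 19.6% lay at gene ends (16.0 to 23.9), 31.4% were in Liver (26.96 to 36.2) and 98.7% were in scWAT. Of the 1817 pairs placed worse, 80.5% lay at gene ends (78.6 to 82.3), 93.1% were in Liver (91.9 to 94.2) and 95.8% were in scWAT. The BAT shares were 40.8% and 64.6%.

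Ranked among themselves and divided into 5 groups of 440 by the size of the change, the pairs with the largest gain stood apart from the other 4 groups. In that group 27.5% lay at gene ends (23.5 to 31.9), while the other groups had 78.4% to 81.6%. With 50% reciprocal overlap the share in the group with the largest gain was 43.6%. Its share in Liver was 39.1% (34.6 to 43.7), against 91.4% to 96.4% in the others. Away from gene ends the Liver share was 23.2% in the largest-gain group and 74.7% to 86.4% in the others. In scWAT the largest-gain group had 98.0% and the others 94.5% to 97.7%. Its median width was 710 bp, against 615 to 657.5 bp, and its median summit shift was 55 bp, against 31 to 39 bp. The hexamer AGGTCA was in 12 of the 54 promoter windows with a summit of this group (22.2%, 13.2 to 34.9) and in 101 of 1012 windows of the other groups (9.98%, 8.28 to 11.98), beside 14.6% of all windows.

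The pair with the largest gain among pairs lay inside Ampd3, an AMP deaminase gene, at rank 33 with estradiol (−log10 p of 192) and 4452 with vehicle (5.73). The peak inside Stk39, a kinase of ion transport control, had rank 79 with estradiol and 4378 with vehicle. A peak 12.3 kb from Gas6, a ligand of the TAM receptor kinases, had rank 54 with estradiol and 3195 with vehicle, and one inside Sox5, a transcription factor gene, 134 with estradiol and 3733 with vehicle. The peak inside Synpo, an actin-associated protein gene, had rank 60 with estradiol and 3123 with vehicle, and the one 6.81 kb from D630003M21Rik 72 with estradiol and 3299 with vehicle. Map2k1, which encodes the kinase MEK1, had the only gene end among the 10 largest gains, at rank 281 with estradiol and 4578 with vehicle. The remaining 3 pairs had no gene within 50 kb and estradiol ranks of 48, 255 and 92 beside vehicle ranks of 3694, 4600 and 3263. With 50% reciprocal overlap, 6 of these 10 pairs kept a gain.

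The 10 pairs with the largest loss all lay within 1 kb of a gene end. Beside Abi1, these included Acat2, an acetyl-CoA acetyltransferase (rank 4508 with estradiol, 707 with vehicle), and Galm, galactose mutarotase (3657 with estradiol, 510 with vehicle). Exosc1, a subunit of the RNA exosome, had 3782 with estradiol and 579 with vehicle, and Nelfb, a subunit of the negative elongation factor, 3690 with estradiol and 569 with vehicle. Xpo1, the nuclear export receptor, had 4802 with estradiol and 973 with vehicle. Zfp111 and Klhdc2 had ranks of 4610 and 4881 with estradiol and 854 and 971 with vehicle.

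At the level of genes, a gene was given every peak with a summit in its span or up to 25 kb outside. Such a peak can lie at an end of another gene, as several named below do. Of 21631 protein-coding genes, 2211 had an estradiol-only peak (10.2%), 6789 a shared peak of either list (31.4%) and 1931 a vehicle-only peak (8.93%). Of the 2211 genes, 794 also had a shared peak and 1417 had none (6.55% of all genes). The gene lists below were chosen with earlier results of these data known. Their members share neighbours and, in part, peaks, and long spans have room for more peaks. The median span was 17.3 kb over all genes. List medians were longest for receptor cofactors (84.8 kb), adipogenic factors (80.0 kb), insulin and glucose (53.9 kb) and lipogenesis (50.8 kb). They were 46.4 kb for neuronal, 42.9 kb for endothelial, 39.2 kb for clock and 37.0 kb for stroma genes. The shortest were ribosomal protein (3.31 kb) and immediate early and AP-1 genes (4.02 kb). The other lists lay between 7.08 and 26.3 kb. Of the 21 lists, 15 had a larger share of members with an estradiol-only peak than all genes had, so a share above 10.2% did not set a list apart. The same held for shared peaks in 15 lists and for vehicle-only peaks in 13. A vehicle-only peak was near 3 estrogen response genes, 2 of lipogenesis, 1 of lipolysis, 1 of fatty acid uptake, 3 adipogenic factors and 3 adipokines. The counts were 3 for insulin and glucose, 4 for immediate early and AP-1, 3 for clock and 2 for cofactor genes.

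Among 24 estrogen response genes, 10 had an estradiol-only peak and 10 a shared one. Greb1, a classical estrogen-induced gene, had 3 estradiol-only peaks inside its span, at ranks 455, 1102 and 3573, and a shared peak at rank 819 with estradiol and 3776 with vehicle. Pgr, the progesterone receptor gene, had an estradiol-only peak at rank 514 and a shared peak 1.93 kb beyond its span at rank 153 with estradiol and 2044 with vehicle. Esr1, which encodes ERα, had estradiol-only peaks at ranks 1912 and 3831 and a shared peak at rank 920 with estradiol and 4117 with vehicle.

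All 3 of these shared peaks stood better with estradiol, as did those near Xbp1 and Nrip1. Xbp1, a transcription factor of the unfolded protein response, had a peak at rank 19 with estradiol and 1183 with vehicle. This peak lay 16.4 kb from the span of Xbp1, within 1 kb of an end of another gene. Nrip1, a corepressor of nuclear receptors that controls fat storage, had a peak at its own end at rank 441 with estradiol and 1861 with vehicle, and an estradiol-only peak inside its span at rank 290. Fkbp5 and Sgk1, hormone-response genes best known for glucocorticoids, had estradiol-only peaks at rank 1287 for Fkbp5 and ranks 1524 and 2066 for Sgk1. Fkbp5 also had a vehicle-only peak inside its span at vehicle rank 4368. Igfbp4, an insulin-like growth factor binding protein, showed the other order, with rank 414 with estradiol and 135 with vehicle. Ccnd1, cyclin D1, had 4684 with estradiol and 2401 with vehicle. These peaks lay 15.7 kb from Igfbp4 and 15.0 kb from Ccnd1, within 1 kb of an end of another gene. Among pairs, the best pair gained rank with estradiol in 5 of 9 estrogen response genes that had one, beside 24.7% of the 4253 genes with a pair. Of the gaining genes, Greb1, Pgr and Esr1 had this pair away from gene ends, where 57.4% of all pairs gained. Xbp1 and Nrip1 had it at a gene end, where 20.9% gained.

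Of 18 genes of triglyceride synthesis and lipogenesis (median span 50.8 kb), 7 had an estradiol-only peak and 10 a shared one. Srebf1, a transcription factor of lipid synthesis, had a shared peak at rank 252 with estradiol and 2709 with vehicle, and an estradiol-only peak inside its span at rank 1593. Gpam, the first enzyme of glycerolipid synthesis, had a shared peak at rank 195 with estradiol and 869 with vehicle. Fasn, fatty acid synthase, and Fads1, a fatty acid desaturase, had shared peaks of like rank. For Fasn these were 116 with estradiol and 130 with vehicle, and for Fads1 63 with estradiol and 39 with vehicle. The peaks lay 9.40 kb outside Fasn and 7.15 kb outside Fads1, within 1 kb of an end of another gene.

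Among 18 genes of lipolysis and its control, 4 carried an estradiol-only and 7 a shared peak. Pnpla2, adipose triglyceride lipase, had an estradiol-only peak 0.823 kb inside its span at rank 1651 and a shared peak at rank 1058 with estradiol and 819 with vehicle. The estradiol-only peaks near Mgll, which cleaves monoglycerides, and G0s2, which inhibits Pnpla2, had ranks 2357 and 2614. The shared peaks near Prkar2b and Prkaca, subunits of protein kinase A, and Plin2, a lipid droplet coat protein, had estradiol ranks of 245, 1286 and 894. Their vehicle ranks were 196, 338 and 438. The shared peaks of Pnpla2, Prkar2b and Plin2 lay 7.81, 8.01 and 14.7 kb outside these genes, within 1 kb of an end of another gene. Ranked among pairs, the best pair gained in 3 of 5 lipolysis genes (Pnpla2, Plin4 and Prkar2b), beside 24.7% of all genes with a pair. Those of Plin2 and Prkaca lost. All 5 lay at a gene end, where 20.9% of all pairs gained. Among 14 genes of fatty acid uptake, 6 carried an estradiol-only and 8 a shared peak. Lrp1, a lipoprotein receptor, had 3 estradiol-only peaks, the best at rank 599, and Cav1, caveolin 1, had 1 at rank 1958. Cav1 also had a vehicle-only peak 17.9 kb away at vehicle rank 3981. The best shared pairs of Slc27a4, a fatty acid transporter, Angptl4, an inhibitor of lipoprotein lipase, and Lrp1 all ranked lower with estradiol, as 1817 of the 2200 pairs did. Their ranks were 424, 1190 and 3974 with estradiol, against 216, 624 and 1900 with vehicle. These pairs lay 14.9, 14.4 and 15.6 kb outside the listed genes, within 1 kb of an end of another gene. Shared peaks whose counterpart lay outside the peaks taken formed no pair. By that selection, each stood better in its own list. The peak inside Cav1, also near Cav2, had rank 860 with estradiol and 5582 with vehicle. The peak inside Cd36 had 1920 with estradiol and 6021 with vehicle. Peaks near Acsl1 (8871, against 2043), Cavin1 (7845, against 2169), Lrp1 (7219, against 4144) and Slc27a4 (5599 and 18707, against 1796 and 2949) ranked lower with estradiol.

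Of 18 adipogenic transcription factors (median span 80.0 kb), 8 had an estradiol-only peak and 10 a shared one. The best pair gained rank among pairs in 7 of 8 genes, or 6 of 7 with Stat5a and Stat5b counted once, beside 24.7% of all genes with a pair. All but Egr2 had this pair away from gene ends, where 57.4% of all pairs gained, against 20.9% at gene ends. The part of position was not tested. Zfp423, a preadipocyte factor, had a shared peak inside its span at rank 279 with estradiol and 995 with vehicle, and estradiol-only peaks at ranks 829 and 4186. Stat5a and Stat5b, transducers of growth hormone and prolactin signals, lie side by side and share a peak at rank 170 with estradiol and 736 with vehicle, so they count as 1 locus. Pparg, the master factor of fat cell formation, had a shared peak 21.2 kb away at rank 1921 with estradiol and 2275 with vehicle. Nr3c1, the glucocorticoid receptor gene, had its best pair 19.8 kb outside its span, at rank 1648 with estradiol and 2501 with vehicle. Inside Nr3c1 lay a vehicle-only peak at vehicle rank 2257 and a shared peak at vehicle rank 2040 and estradiol rank 8856. Egr2, an early factor of adipogenesis, had 636 with estradiol and 720 with vehicle. The Egr2 peak lay 7.17 kb outside its span, within 1 kb of an end of another gene. Among the best pairs Klf15 was the exception, at 4453 with estradiol and 1640 with vehicle.

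Of 16 adipokine genes, 6 had an estradiol-only peak and another 6 a shared one, with no member in both sets. Cfd lay near the estradiol-only peak of rank 22 described above, and had a vehicle-only peak 16.4 kb away at vehicle rank 3223. Vegfa, an angiogenic factor, had an estradiol-only peak inside its span at rank 265. Nampt, an enzyme of NAD synthesis that is also secreted, had one 3.92 kb outside its span at rank 957, and Lep, leptin, had one 16.2 kb outside at rank 1447. The best shared pairs of Fgf21, Adipoq (adiponectin) and Rarres2 (chemerin) had ranks 609, 4888 and 4934 with estradiol and 433, 3334 and 1525 with vehicle. They lay 24.6, 18.5 and 15 kb outside these genes, within 1 kb of an end of another gene.

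Of 18 insulin and glucose genes, 4 had an estradiol-only peak and 7 a shared one. Pik3r1, the main regulatory subunit of PI3 kinase, had an estradiol-only peak at rank 1268, and Pdk4, a pyruvate dehydrogenase kinase, had a shared peak at rank 1491 with estradiol and 2601 with vehicle. Akt1, Gys1 and Igf1r had best shared pairs at ranks 4120, 3459 and 1881 with estradiol and 1483, 1252 and 1032 with vehicle. Of 16 receptor cofactors, 5 had an estradiol-only and 10 a shared peak, and the best pair gained rank in 1 of 6 (Nrip1), near the 24.7% over all genes with a pair. The pairs that lost rank included those of Kmt2d (586 with estradiol, 217 with vehicle) and Carm1 (841 with estradiol, 488 with vehicle). The Carm1 pair lay 3.43 kb outside its span, within 1 kb of an end of another gene. Of 16 clock genes, 4 had an estradiol-only and 7 a shared peak. Arntl, a core activator of the clock, had rank 122 with estradiol and 35 with vehicle. Per2, a repressor of the clock, had 3 estradiol-only peaks, the best at rank 1490.

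Of 20 immediate early and AP-1 genes, 5 had an estradiol-only and 12 a shared peak. Fosl2, an AP-1 subunit, had an estradiol-only peak at rank 1219. Fosl1, another subunit, had a shared peak 4.65 kb outside its span at rank 199 with estradiol and 75 with vehicle. This peak lay within 1 kb of an end of another gene. Among pairs, the best pair gained rank in 4 of 5 genes of the list, beside 24.7% of all genes with a pair. Fosl1 was the exception. All but Btg2 had this pair at a gene end, where 20.9% of all pairs gained. The part of position was not tested.

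Genes that mark other cells of the tissue, or of other tissues, were counted in the same way. Of 18 stroma and matrix genes, 4 had an estradiol-only and 3 a shared peak. The estradiol-only ones included well-ranked peaks near Dcn, decorin (rank 212), Cd34, a surface marker of adipose progenitors and vessels (rank 492), and Col6a3, a collagen VI chain (rank 526). For endothelium 2 of 15 genes had an estradiol-only and 3 a shared peak, for macrophages and inflammation 1 and 3 of 16, and for mesothelium 0 and 2 of 10. Nfkbia, an inhibitor of NF-κB and the single macrophage-list gene with an estradiol-only peak, had it at rank 111, 23.5 kb from the gene. Mammary and other epithelial genes had an estradiol-only peak in 2 of 14 and a shared one in 5, hepatocyte genes in 2 and 3 of 15, brown fat genes in 1 and 2 of 12, and neuronal genes in 1 and 4 of 12. Vehicle-only peaks were near 3 endothelial, 1 macrophage-list, 1 epithelial, 1 brown fat and 2 neuronal genes, and 0 stroma, mesothelium and hepatocyte genes. Over all genes the shares were 10.2% for estradiol-only, 31.4% for shared and 8.93% for vehicle-only peaks. A peak near a gene does not show which cell carried it.

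In the lists of general cell function, 60% to 70% of members had a shared peak. Receptor cofactors (62.5%, median span 84.8 kb) and immediate early and AP-1 genes (60%, 4.02 kb) lay in the same range. Fatty acid uptake genes stood at 57.1%. Of 20 cytosolic ribosomal protein genes (median span 3.31 kb), 1 had an estradiol-only peak (Rps24, rank 3889) and 14 had a shared one. Their best pair gained rank among pairs in 0 of 7 genes, beside 24.7% of all genes with a pair. All but Rpl18 had this pair at a gene end, where 20.9% of all pairs gained. Rps18 had rank 103 with estradiol and 68 with vehicle at its end. Of 20 respiratory chain genes, 2 had an estradiol-only and 12 a shared peak. Ndufb3, a subunit of complex I, had rank 11 with estradiol and 4 with vehicle, and Atp5b, of ATP synthase, had 78 with estradiol and 18 with vehicle. Of 18 proteasome and ubiquitin genes, 3 had an estradiol-only and 12 a shared peak. Vehicle-only peaks were near 2 ribosomal protein, 4 respiratory chain and 3 proteasome and ubiquitin genes. The best pair of this list, near Psma3, had rank 20 with estradiol and 15 with vehicle. The difference between these lists and the fat cell lists was not tested.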

How the data were processed

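ERα ChIP-seq peak lists of vWAT from mice given estradiol (4 libraries) or vehicle (2 libraries) were compared, with the scWAT, BAT and Liver lists beside them. Per the labels' protocols, nuclei of frozen tissue were sonicated and precipitated with the antibody sc543. Per the submitters' processing notes, the tools included HOMER and BWA 0.7.12 and the build was mm10. The sources used here do not give the peak caller, its control or how libraries were pooled. The authors deposited, per peak, a summit position, an enrichment ratio over an unstated background, −log10 values of p and q, and a score that equalled 10 times the −log10 p with its decimals dropped in 100% of peaks.

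Peaks on chromosomes 1 to 19 and X were kept (8 estradiol and 9 vehicle peaks lay elsewhere) and ranked by −log10 p, ties by enrichment and then position. The first 5000 of each list were classed by overlap of at least 1 bp with the other full list. Pairs matched each peak once. Genes came from RefSeq on GRCm38.p6, the assembly of mm10; promoter sequences came from RefSeq too and cover 79.9% of protein-coding genes. All 346 listed genes matched. The members and gene lists were chosen with earlier results of these data known. Peaks were assigned to the closest protein-coding gene up to 50 kb away. The first 10 peaks of each class, the 10 largest gains and losses of rank, up to 4 genes per list by best rank, and Greb1, Pgr and Esr1 were to be named, of which 1 is not reported here; all other genes named were chosen after their values were seen. Shares carry 95% Wilson intervals for counting error over peaks. Read depth is unknown. Alternatives changed the ranking column, the number of peaks, the overlap rule, the q-value threshold and the distances. The overlap and pairing code was tested on simulated peaks. The work used matplotlib 3.10.9, scipy 1.17.1, pandas 2.3.3 and numpy 2.4.6 in Python 3.11.15.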

Additional observations from a re-analysis of the deposited data

How the results depend on the processing

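Neither the rank correlation nor the median change of rank changed sign under any alternative. Shares and counts were checked for size only, not for direction. Of 173 recomputed values that answer a comparison, 109 stayed within the error of the reported value and 64 moved. Estradiol-only peaks were 52.6% of the peaks taken as reported, 44.4% at 3000 peaks per list, 59.4% at 7000, 57.3% with 50% reciprocal overlap, 60.0% with summits within 100 bp, 55.6% at a −log10 q of 2 and 56.0% when looked up in the first 5000. Vehicle-only peaks were 24.4% as reported and 7.47%, 34.6%, 33.5%, 44.4%, 25.7% and 55.8% in the same order. At gene ends, estradiol-only peaks were 6.37% at 7000 peaks, 10.3% by summits and 16.3% within 5 kb. Shared peaks there were 71.2% by reciprocal overlap, 69.2% by summits, 69.6% by q-value, 69.9% in the first 5000 and 73.5% within 5 kb. Vehicle-only peaks there were 50% at 3000 peaks, 40.5% by reciprocal overlap, 48.1% by summits, 52.9% in the first 5000 and 47.0% within 5 kb.

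In scWAT, estradiol-only peaks were 94.0% at 3000 peaks, 74.4% at 7000, 86.1% by summits and 80.5% ranked by enrichment, shared peaks were 98.6% at 3000 and 93.5% at 7000, and vehicle-only peaks were 37.9% at 3000, 39.8% by reciprocal overlap, 49.2% by summits and 50.2% in the first 5000. In Liver, estradiol-only peaks were 9.85% by reciprocal overlap and 14.8% by summits, shared peaks 83.5%, 81.1%, 82.0% by q-value and 82.4% in the first 5000, and vehicle-only peaks 39.3% at 3000, 20.1% at 7000, 30.3% by reciprocal overlap, 42.0% by summits and 46.2% in the first 5000. The vehicle-only shares in scWAT and Liver thus moved by over 1.5 times with the way overlap was set.

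Spearman's correlation of ranks was 0.62 by reciprocal overlap, 0.58 by summits and 0.57 by enrichment. The median change of rank was -489 at 3000 peaks, -844.5 at 7000, -799 by reciprocal overlap, -573 by enrichment and -124.5 among pairs. Of the pairs with the largest gain, 42.6% lay at gene ends at 3000 peaks, 20.3% at 7000, 43.6% by reciprocal overlap and 36.0% by summits, and of the other pairs 76.7% at 7000. Of the 10 named gains, 6 kept a gain by reciprocal overlap and 0 at 3000 peaks, and of the 10 named losses 6 by enrichment and 0 at 3000 peaks, where 1 of their ranks lies outside the peaks taken. At 3000 peaks, 8 gene lists exceeded all genes for vehicle-only peaks, against 13. For gene lists and BAT shares, 394 of 615 recomputed values stayed and 221 moved. No paired analysis was possible because each group has 1 peak list without values per library, and for the same reason no library could be left out in turn.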

Other observations

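Some genes carried several estradiol-only peaks. At least 5 lay inside or within 25 kb of each of 16 genes, which were chosen after their values were seen, and many of these genes are long. Adam12, a metalloprotease of adipose progenitors and muscle, had 8 over a span of 342 kb, the best at rank 451, with no shared peak. Trabd2b, a regulator of Wnt signalling, had 7 over 208 kb, the best at rank 211, with 1 shared peak, and Adamts2, which processes procollagen, had 6 over 205 kb, the best at rank 147, with 2 shared peaks. Shorter genes with 5 included Tnip1, an inhibitor of NF-κB signalling (52.2 kb), Dennd2a (95.8 kb), and Col4a1, a basement membrane collagen chain (114 kb), none of which had a shared or vehicle-only peak. Ell (53.2 kb) and Shb (108 kb) also had 5, beside 2 shared peaks for Ell and 1 for Shb. Over all protein-coding genes, 378 had at least 2 estradiol-only peaks and 85 at least 3.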
